A study of Mus musculus with 6 samples.

Results

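A set of 10 marker genes of dendritic cells was read from arrays of splenic B-cell isolates, as a measure of dendritic cells left after the isolation. The genes were Flt3, Zbtb46, Itgax, Xcr1, Clec9a, Batf3, Cd209a, Clec10a, Siglech and Ccr9. They were taken by name, as known markers of conventional and plasmacytoid dendritic cells, from 19935 genes measured. Each of the 10 was named by 1 probe set of its own. The isolates came from 3 CD37KO mice, which lack the tetraspanin CD37 (Cd37 -/-), and from 3 WT littermates. Both genotypes were on a C57BL/6J background, with no treatment given, and aged 3 months in GEO's labels, while the methods state an older age. Spleen cells were depleted of those carrying CD43, a sialoglycoprotein of T cells and myeloid cells that resting B cells lack. B220 staining then served to judge purity. RNA of each mouse was hybridised to 1 Affymetrix mouse gene array.

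Dendritic cells take up antigen and present it to T cells. Conventional dendritic cells fall into a Batf3-dependent subset that cross-presents antigen (cDC1) and a second subset that mainly primes helper T cells (cDC2), while plasmacytoid dendritic cells (pDC) release type I interferon. In the mouse spleen all of them arise from progenitors that carry the receptor Flt3, and mouse pDC also carry B220, so that staining for B220 does not set them apart from B cells.

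Values are log2 expression after RMA. Background was set at a log2 level of 5.77, the 95th percentile of 1015 olfactory receptor genes. That splenic cells do not use these genes was assumed and not tested. Above this level in all 6 arrays lay 9874 genes. The B cell gene Ms4a1 averaged 12.30 ± 0.0691 in CD37KO and 12.40 ± 0.0711 in WT isolates (SD, n = 3 each). All 13 measured genes of a mature B cell list besides Cd37 lay above background in all arrays. Their list means were 11.05 to 11.09 in CD37KO and 11.08 to 11.15 in WT isolates. This list also held Ptprc and Spn, and Spn is not a marker of resting B cells. Cd37, the deleted gene, was at 8.16 ± 0.0107 in CD37KO and 11.97 ± 0.13 in WT isolates (SD, n = 3 each; adjusted p = 1.37e-07 from limma), above background in both. Spn, which encodes CD43, was at 6.83, 7.09 and 6.99 in CD37KO isolates and at 6.93, 6.91 and 6.85 in WT isolates. It was thus above background in every array, although cells carrying CD43 had been depleted. Ptprc, whose B-cell isoform is B220, averaged 12.11 ± 0.0352 in CD37KO and 12.16 ± 0.0437 in WT isolates (SD, n = 3 each).

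Most dendritic cell markers were at or near background in these isolates. Of the 10 markers, 5 lay above background in all 6 arrays (Flt3, Itgax, Zbtb46, Siglech and Cd209a) and the other 5 (Xcr1, Clec9a, Batf3, Clec10a and Ccr9) lay below it in all 6. Of the first 5, Zbtb46, Siglech and Cd209a lay close to the line, between 5.77 and 6.28 in every array. At a stricter line, a log2 level of 6.40 that 99% of the olfactory receptor genes do not reach, none of the 10 was above it in every array. Flt3 and Itgax were under it only in CD37KO replicate 2, at 6.36 and 6.23. The mean over the 10 markers was 5.62, 5.56 and 5.68 in CD37KO isolates and 5.69, 5.70 and 5.68 in WT isolates. In bulk RNA, fewer cells of a type and less RNA per cell cannot be told apart.

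**Figure D1:**
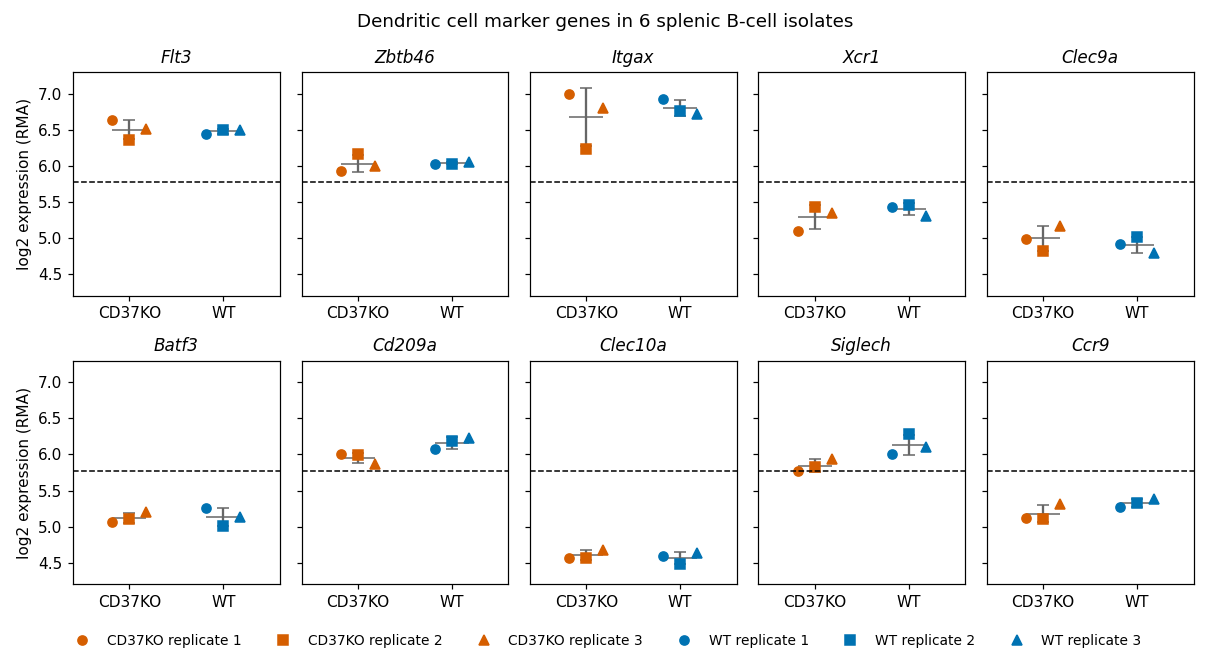
Log2 expression (RMA, y axis) of the 10 dendritic cell marker genes in the 3 CD37KO and 3 WT isolates (x axis). Symbols give replicates 1, 2 and 3, grey bars the mean and SD, and the dashed line the background level of 5.77. Xcr1, Clec9a, Batf3, Clec10a and Ccr9 lie below the line throughout, and Siglech and Cd209a are lower in all CD37KO than in all WT isolates.

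After limma's p-values were adjusted over all genes, 0 of 10 markers passed 0.05, as did 0.0552% of all genes (5 higher and 6 lower, but 12 higher and 2 lower without CD37KO replicate 2). At an unadjusted p under 0.05, 2 of 10 markers were lower in CD37KO isolates, Siglech and Cd209a, where 2.99% of all genes were lower. None of the 10 was higher, where 2.96% of all genes were. These were also the 2 markers whose CD37KO arrays all lay below all WT arrays, as 7.57% of all genes did. The fitted difference was negative for 7 markers and positive for 3, with a median of -0.062 on the log2 scale against -0.0186 over all genes tested. With 2 genes out of 10, the count is small and neither difference passed the adjustment.

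Flt3 encodes the receptor tyrosine kinase that drives dendritic cell development. It was at 6.63, 6.36 and 6.51 in CD37KO isolates and at 6.44, 6.50 and 6.49 in WT isolates, so the highest and the lowest array were both CD37KO. The log2 difference was 0.026, with a 95% interval of -0.15 to 0.20 (adjusted p = 0.953 from limma). On the fold scale the interval ran from 0.90 to 1.15.

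Zbtb46 encodes a zinc finger transcription factor used as a marker of conventional dendritic cells and their precursors. Its log2 level was 5.93, 6.16 and 5.99 in CD37KO isolates and 6.02, 6.03 and 6.05 in WT isolates. The WT values lay inside the CD37KO range, and the log2 difference was -0.002 (95% interval -0.17 to 0.17, adjusted p = 0.995 from limma).

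Itgax encodes CD11c, the integrin alpha subunit by which dendritic cells are usually gated, and which some macrophages, NK cells and activated B cells carry as well. It was at 7.00, 6.23 and 6.80 in CD37KO isolates and at 6.92, 6.76 and 6.72 in WT isolates. CD37KO replicate 2 stood below the other 5 arrays. The log2 difference was -0.12 (95% interval -0.52 to 0.28, adjusted p = 0.895 from limma), and without CD37KO replicate 2 it was 0.10. The within-group SD of Itgax was 0.293, larger than that of 97.5% of all genes. No other marker came near this: their SD ran from 0.069 to 0.146, around the median of 0.093 over all genes.

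The mean level of macrophage and monocyte genes was also lowest in CD37KO replicate 2. That mean over 21 such genes was 8.75, 7.79 and 8.78 in CD37KO isolates and 8.73, 8.01 and 8.10 in WT isolates, with 15 of them above background in all arrays. Adgre1, which marks mouse macrophages, was at 10.19, 9.18 and 10.42 in CD37KO and at 10.10, 9.17 and 9.35 in WT isolates, with WT replicate 2 as low as CD37KO replicate 2. Not every gene of this list followed its mean. Lyz2 was at 9.66, 9.19 and 8.95 in CD37KO and at 9.10, 8.66 and 8.30 in WT isolates. Cx3cr1, Marco and Lyz1, all near background, were highest among CD37KO isolates in replicate 2, at 5.88, 5.76 and 5.94. Of the 21 genes, only Lyz2 was higher in CD37KO isolates at an unadjusted p under 0.05, and none passed the adjustment. Itgax and the mean of this list were both highest in CD37KO replicates 1 and 3 and in WT replicate 1. The part of macrophages in the Itgax signal was not tested.

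Xcr1, Clec9a and Batf3 mark the cDC1 subset, and none of them reached background in any array. Xcr1, the receptor for the chemokine XCL1, was at 5.10, 5.43 and 5.34 in CD37KO isolates and at 5.43, 5.46 and 5.31 in WT isolates. Clec9a, a C-type lectin that recognises actin exposed by dead cells, was at 4.99, 4.82 and 5.17 in CD37KO isolates and at 4.92, 5.01 and 4.79 in WT isolates. Batf3, a transcription factor that cDC1 need to develop, was at 5.06, 5.10 and 5.20 in CD37KO isolates and at 5.26, 5.01 and 5.13 in WT isolates. The groups overlapped for all 3 genes, at adjusted p of 0.833 for Xcr1, 0.863 for Clec9a and 0.982 for Batf3 from limma. Of the olfactory receptor genes, 85.0% had a lower mean than Xcr1, 47.1% a lower mean than Clec9a and 67.6% a lower mean than Batf3. Since both genotypes were below background, no fold is given for them.

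The 10 further cDC1 genes were partly genes that B cells or macrophages express too, and 7 of them were above background in all arrays. None passed an unadjusted p under 0.05, and their median log2 difference was -0.02. Id2 was at 10.48, 10.09 and 10.48 in CD37KO isolates and at 10.47, 9.80 and 9.86 in WT isolates. Its log2 difference was 0.31 (adjusted p = 0.801 from limma). It was highest in CD37KO replicates 1 and 3 and WT replicate 1, as was the macrophage and monocyte mean. Ly75, the endocytic receptor DEC-205, had the smallest p, with 6.90 ± 0.0661 in CD37KO and 6.77 ± 0.0624 in WT isolates (SD, n = 3 each; adjusted p = 0.801 from limma). Tlr3, a receptor for double-stranded RNA, was at 6.39 ± 0.138 in CD37KO and 6.24 ± 0.11 in WT isolates (SD, n = 3 each; adjusted p = 0.801 from limma). Naaa, a lysosomal amidase, ran the other way, with 8.57 ± 0.0889 in CD37KO and 8.71 ± 0.172 in WT isolates (SD, n = 3 each; adjusted p = 0.809 from limma).

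Cd209a and Clec10a are C-type lectins of the cDC2 and monocyte-derived lineages. Cd209a, a mouse relative of DC-SIGN that belongs to a cluster of similar genes, was at 6.00, 5.99 and 5.87 in CD37KO isolates and at 6.07, 6.19 and 6.23 in WT isolates. All 3 CD37KO isolates were below all 3 WT isolates. Its mean was 5.95 ± 0.0706 in CD37KO and 6.16 ± 0.0817 in WT isolates (SD, n = 3 each), a log2 difference of -0.21 (95% interval -0.37 to -0.05, unadjusted p = 0.017, adjusted p = 0.801 from limma). The fold was 0.87, with an interval of 0.77 to 0.97. An exact two-sided permutation test gave p = 0.1, the smallest that 3 against 3 arrays allow. The unadjusted p was 0.0654 without CD37KO replicate 3 and 0.0599 without WT replicate 3. Whether the probes of Cd209a also bind transcripts of the related genes was not tested.

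Clec10a, the galactose-binding lectin CD301a of macrophages and cDC2, was the marker farthest below background. It was at 4.56, 4.57 and 4.68 in CD37KO isolates and at 4.59, 4.48 and 4.63 in WT isolates, and only 7.1% of olfactory receptor genes had a lower mean. Of 10 further cDC2 genes, 6 were above background in all arrays and none passed an unadjusted p under 0.05 (median log2 difference 0.02). Mgl2, a close relative of Clec10a, averaged 4.96 ± 0.111 in CD37KO and 5.08 ± 0.169 in WT isolates (SD, n = 3 each), below background in both. Sirpa, a myeloid receptor that macrophages share with cDC2, was at 10.12, 9.13 and 10.37 in CD37KO isolates and at 9.76, 9.23 and 9.28 in WT isolates. Like Itgax, it was lowest in CD37KO replicate 2.

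Siglech encodes the sialic acid-binding lectin by which mouse pDC are recognised, and which some macrophages of the spleen also carry. It was at 5.77, 5.82 and 5.94 in CD37KO isolates and at 6.00, 6.28 and 6.11 in WT isolates. No CD37KO isolate reached the lowest WT isolate, and CD37KO replicate 1 lay on the background line to 2 decimals. The mean was 5.84 ± 0.0846 in CD37KO and 6.13 ± 0.141 in WT isolates (SD, n = 3 each). This was the largest difference among the 10 markers, at -0.28 on the log2 scale (standard error 0.0859, 95% interval -0.48 to -0.09). It had an unadjusted p of 0.0102 and an adjusted p of 0.801 from limma, and p = 0.1 in the exact two-sided permutation test. The fold was 0.82, with an interval of 0.72 to 0.94. Under each of 14 alternatives, leaving out each array among them, the unadjusted p lay between 0.00571 and 0.04 and the adjusted p did not pass.

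Siglech lies on chromosome 7, as Cd37 does, 99 measured genes away among 1738 on that chromosome in the gene order of GRCm38.p6. Of the 10 measured genes on each side of Siglech, none was lower at an unadjusted p under 0.05 and 1 was higher, Atp10a. Among all genes, 2.99% were lower and 2.96% higher. The median log2 difference over the 20 neighbours was -0.022. Itgax is on the same chromosome, 852 measured genes from Cd37. Whether the position of Siglech bears on its difference was not tested.

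The promoters of Siglech and Cd209a are shown because these were the markers whose genotypes did not overlap. Sequences are from RefSeq (GRCm38.p6), which held 9 of the 10 members, and span 250 bases before to 50 after the start. Capitals mark E-boxes (CANNTG), the motif of E proteins such as the pDC regulator Tcf4, and the core motif GAGGAA of the myeloid factor PU.1 on either strand, none of which overlap here. The Siglech promoter (chr7:55767934-55768233, plus strand) held 3 E-boxes and 1 PU.1 core, which reads TTCCTC on the strand shown. That of Cd209a (chr8:3748935-3749234, minus strand) held 2 E-boxes and no PU.1 core.
Siglech: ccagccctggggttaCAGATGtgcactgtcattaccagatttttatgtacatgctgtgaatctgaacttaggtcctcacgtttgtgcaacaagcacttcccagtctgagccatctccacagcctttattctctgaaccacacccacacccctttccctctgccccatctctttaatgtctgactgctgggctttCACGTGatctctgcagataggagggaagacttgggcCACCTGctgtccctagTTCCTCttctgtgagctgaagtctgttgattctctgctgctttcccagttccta
Cd209a: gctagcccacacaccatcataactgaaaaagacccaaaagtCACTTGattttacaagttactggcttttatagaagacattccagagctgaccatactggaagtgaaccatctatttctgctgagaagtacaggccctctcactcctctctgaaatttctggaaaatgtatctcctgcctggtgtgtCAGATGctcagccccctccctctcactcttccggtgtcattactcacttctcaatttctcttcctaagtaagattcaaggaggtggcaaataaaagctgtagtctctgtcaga
Among all 32851 promoters of this length, 72.3% held an E-box and 28.3% a PU.1 core. The AP-1 site TGANTCA, searched for as well, was in neither of the pair and in 7.8% of all promoters. Such matches describe the letters only.

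Ccr9, a chemokine receptor of pDC and of gut-homing T cells, was the other pDC member. It was at 5.12, 5.10 and 5.32 in CD37KO isolates and at 5.27, 5.33 and 5.38 in WT isolates, below background throughout. The groups overlapped by 1 CD37KO array, and the log2 difference was -0.14 (95% interval -0.32 to 0.033, unadjusted p = 0.0973, adjusted p = 0.801 from limma). Without CD37KO replicate 3 it was -0.21, with an unadjusted p of 0.0201 and an adjusted p of 1 from limma, so that Siglech and Ccr9, not Cd209a, were then the markers under 0.05.

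Other pDC genes were read from a list beside Siglech and Ccr9. Of 13 measured, 11 were above background in all arrays, several of which B cells also express (Tcf4, Spib, Tlr7 and Tlr9). None was lower at an unadjusted p under 0.05 and 1 was higher, where 2.99% of all genes were lower and 2.96% higher. The median log2 difference of the 13 was 0.09. The gene that was higher was Pacsin1, a membrane-bending protein of neurons and pDC, at 6.59 ± 0.0642 in CD37KO and 6.43 ± 0.0901 in WT isolates (SD, n = 3 each; unadjusted p = 0.0459, adjusted p = 0.801 from limma). Bst2, the pDC antigen PDCA-1, averaged 6.61 ± 0.0439 in CD37KO and 6.51 ± 0.0594 in WT isolates (SD, n = 3 each; adjusted p = 0.81 from limma).

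**Figure D2:**
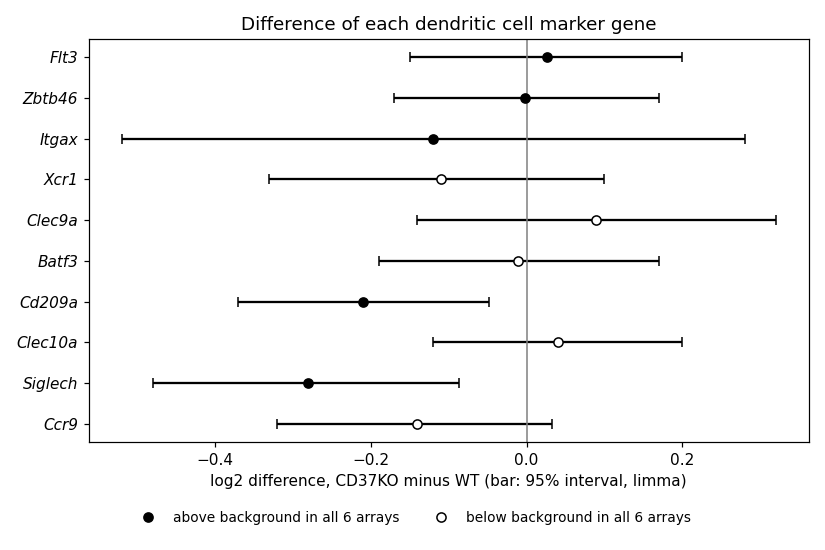
Log2 difference (x axis, CD37KO minus WT, 3 arrays each) of each dendritic cell marker gene (y axis), with its 95% interval from limma. Filled points are genes above background in all 6 arrays and open points genes below it. The intervals of Siglech and Cd209a lie below 0, and that of Itgax, from -0.52 to 0.28, is the widest.

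For the markers above background whose interval held 0, the fold intervals were 0.70 to 1.21 for Itgax, 0.90 to 1.15 for Flt3 and 0.89 to 1.12 for Zbtb46. These bounds are on the RMA scale, which pulls signals near background together.

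Genes of mature dendritic cells and of dendritic cell regulators lay mostly above background, and B cells express many of them. Of 14 measured genes of mature dendritic cells, 2 were higher and 1 was lower at an unadjusted p under 0.05, and none passed the adjustment. The shares over all genes were 2.96% higher and 2.99% lower. Cd274, which encodes the inhibitory ligand PD-L1, was at 9.81, 9.72 and 9.67 in CD37KO isolates and at 9.94, 9.97 and 9.99 in WT isolates (unadjusted p = 0.00607, adjusted p = 0.801 from limma). All CD37KO arrays were below all WT arrays, as for 7.57% of all genes. Relb, an NF-kB subunit that dendritic cells need to mature, averaged 8.50 ± 0.073 in CD37KO and 8.35 ± 0.0254 in WT isolates (SD, n = 3 each; unadjusted p = 0.0361 from limma). Fscn1, the actin-bundling protein fascin, averaged 6.33 ± 0.112 in CD37KO and 6.14 ± 0.0842 in WT isolates (SD, n = 3 each; unadjusted p = 0.0417 from limma).

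Of 21 measured regulators, 2 were higher at an unadjusted p under 0.05, none was lower and none passed the adjustment. Among all genes, 2.96% were higher and 2.99% lower at that p, and 2 of 21 is a small count. Nfil3, a transcription factor needed for cDC1, was at 7.53, 7.60 and 7.61 in CD37KO isolates and at 7.24, 6.91 and 7.43 in WT isolates (unadjusted p = 0.0111, adjusted p = 0.801 from limma). Csf2ra, the alpha chain of the GM-CSF receptor, averaged 8.23 ± 0.165 in CD37KO and 7.97 ± 0.135 in WT isolates (SD, n = 3 each; unadjusted p = 0.0338 from limma). Flt3l, the ligand of Flt3, averaged 7.86 ± 0.118 in CD37KO and 7.70 ± 0.115 in WT isolates (SD, n = 3 each; adjusted p = 0.801 from limma).

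Markers of other cells were read beside those of dendritic cells. Of 17 measured neutrophil genes, 6 were above background in all arrays and 2 were below it in all. Of the 17, 12 had an unadjusted p under 0.05 and were higher in CD37KO isolates, where 2.96% of all genes were. None of the neutrophil genes passed the adjustment, and the median of their log2 differences was 0.73. Their mean was 7.47, 6.33 and 6.87 in CD37KO isolates and 6.07, 5.89 and 6.10 in WT isolates, without overlap. The mean over the dendritic cell markers did not show this order, at 5.56 to 5.68 in CD37KO and 5.68 to 5.70 in WT isolates. T cell genes (12 measured, 5 above background in all arrays) had list means of 5.84 to 5.89 in CD37KO and 5.89 to 5.97 in WT isolates. Of these, Cd8b1 alone was lower at an unadjusted p under 0.05 and none was higher, where 2.99% of all genes were lower. NK cell genes (10 measured, 5 above background in all arrays) had list means of 6.06 to 6.15 in CD37KO and 6.04 to 6.39 in WT isolates. Erythroid genes (6 measured, 2 above background in all arrays) had list means of 5.75 to 6.10 in CD37KO and 5.77 to 6.00 in WT isolates. The part of other cells in the Siglech and Cd209a differences was not tested.

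**Figure D3:**
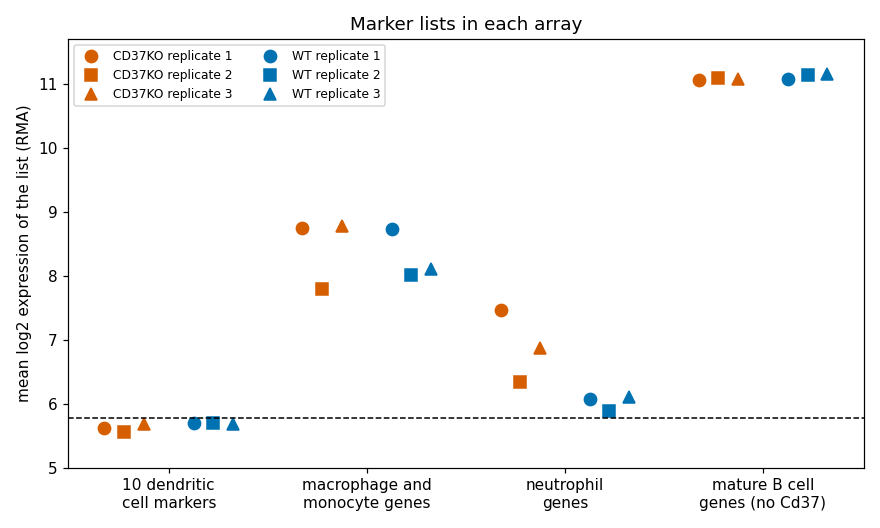
Mean log2 expression (RMA, y axis) of 4 marker lists (x axis) in each of the 3 CD37KO and 3 WT isolates, with symbols for replicates 1, 2 and 3 and a dashed line at the background level of 5.77. The 10 dendritic cell markers lie between 5.56 and 5.70 in all 6 isolates, while the macrophage and monocyte mean runs from 7.79 to 8.78.

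The genes whose 6 values were most like those of each marker above background were taken by Pearson's r among 9873 genes, as a description with no test. The 3 nearest genes of each of the 5 markers had r between 0.963 and 0.995 over 6 arrays, and none of these 15 genes was on any of the marker lists. With 6 values per gene, the nearest of 9873 genes can reach such r by chance. No conclusion on what the markers follow is drawn from these names. For Siglech they were Med13l (r = 0.992), Ccdc127 (0.981) and D330041H03Rik (0.979). For Cd209a they were Arfgef2 (r = 0.995), Selenot (0.990) and Mrgprg (0.976). For Itgax they were Nr3c1 (r = 0.987), Fcsk (0.985) and Rnf214 (0.963). The nearest gene was Khdc4 (r = 0.995) for Flt3 and Rps7 (r = 0.970) for Zbtb46. The 6 arrays share their normalization.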

How the data were processed

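RNA of splenic B-cell isolates was measured in 3 CD37KO and 3 WT mice, 1 array per mouse. The authors deposited log2 values per probe set after RMA, with genome build mm8 named in the submitters' processing notes. Raw scans were not used here. Of 35361 probe sets, 21780 name a single gene, 1605 several and 11976 none in the annotation used. Symbols were updated by Entrez ID to the GRCm38.p6 gene table, and the probe set with the highest mean was kept for each of 19935 genes. No dim probe set was left out. CD37KO was compared with WT with lmFit and eBayes of limma 3.58.1 (R 4.3.3). Tests were two-sided, with p-values adjusted over all genes by Benjamini-Hochberg and a threshold of 0.05, and the fit was tested on simulated data. The number of arrays limits the precision.

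The members and lists were chosen with earlier results of these data known. Named genes are the members, Cd37, up to 4 genes of each list by smallest p and the 3 genes most like each marker above background; Spn, Ptprc, Adgre1, some pDC genes and the neighbours of Siglech were added after values were seen. The labels do not say whether same-numbered mice belong together, and the main fit did not pair them. Deviations of same-numbered arrays correlated at 0.238, 0.007 and -0.139, which does not settle this. Alternatives were another quantile normalization, median centring, ordinary least squares, a robust eBayes with trend, array weights, a replicate block, a fit of genes above background only, averaging the probe sets of each gene, leaving out each array and other background lines. Some listed genes were not analysed here.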

Additional observations from a re-analysis of the deposited data

How the results depend on the processing

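No dendritic cell marker passed an adjusted p under 0.05 under any of the 14 alternatives. Their median log2 difference stayed between -0.093 and -0.028 in the 13 that kept all 10, some of which could not move it. Several alternatives could not move a marker's difference. They were ordinary least squares, the robust eBayes, the replicate block, the fit of genes above background and the averaging of probe sets. The last could not because each marker had 1 probe set. With these included, 123 of 135 differences of single markers kept their direction. The other 12 turned: with quantile normalization Flt3 was at -0.012, Zbtb46 at 0.0052 and Batf3 at 0.04, and with median centring Zbtb46 was at 0.0045. Leaving out 1 array gave -0.036 to 0.095 for Flt3, -0.28 to 0.10 for Itgax, -0.069 to 0.047 for Zbtb46, -0.07 to 0.051 for Batf3 and -0.0013 to 0.071 for Clec10a. The count over all genes, 11, was 3 by ordinary least squares, 19 with array weights, 4 with the replicate block and 4 to 14 when 1 array was left out: 14 without CD37KO replicate 2, 4 without CD37KO replicate 1, CD37KO replicate 3 or WT replicate 1, and, in WT, 6 without replicate 2 and 5 without replicate 3. Calls were split 5 higher to 6 lower, but 12 to 2 without CD37KO replicate 2, and 3 to 1 with the replicate block and without CD37KO replicate 1, CD37KO replicate 3 or WT replicate 1. The causes were not tested. No marker changed its call under the replicate block, where Siglech had an unadjusted p of 0.0121 and Cd209a of 0.0379.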
